A study of Mus musculus with 4 samples.

Results

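Axon guidance ligands and receptors were examined in mouse iMOP cells, an immortalized line of multipotent otic progenitors, and in neurons derived from them. The genes were chosen by patterns of their symbols, with earlier results of these data known. They comprised the class 3 to 7 semaphorins, plexins, neuropilins, Eph receptors, ephrins, Slits, Robos, netrins, the Unc5 receptors, Dcc and Neo1. These patterns found 70 of the 49997 genes in the count tables, 35 coding for ligands and 35 for receptors. Total RNA depleted of ribosomal RNA was sequenced with a stranded kit from 2 samples of proliferating iMOPs and 2 samples of neurons, all wild-type. The proliferating cells grew in DMEM/F12 with B27, carbenicillin and 20 ng/ml bFGF, a growth factor. The neurons grew in Neurobasal medium with N21, L-glutamine and 1 µM K03861, which blocks the kinase CDK2. Both groups come from 1 cell line, so no replicate is an animal. The labels call the replicates biological and say nothing on how separate their cultures were, so p-values measure only the spread between these samples, which may be technical. Where values are given in pairs below, replicate 1 comes first and replicate 2 follows.

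Growing axons are steered by attractive and repulsive proteins that are read by receptors on the growth cone. Semaphorins act through plexins, with neuropilins as co-receptors for most secreted class 3 members. Ephrins are bound to the membrane and signal in both directions with Eph receptors at cell contacts. Netrins attract through Dcc and repel through Unc5 receptors, and Slits repel through Robo receptors. In the inner ear these families are known for guiding the peripheral and central axons of spiral and vestibular ganglion neurons.

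Count totals were 7446361 and 10377984 for the proliferating libraries and 9474127 and 14484011 for the neuron libraries. One 18S ribosomal RNA row took 53.3% and 75.0% of these totals for proliferating iMOPs and 59.4% and 76.1% for neurons. Its share was thus higher in both replicate 2 libraries. This left 2595578 to 3850766 counts for all other genes. The guidance genes together held 0.149% to 0.209% of these other counts. Proliferating replicate 2 stood apart: across tested genes its log2 CPM correlated with that of proliferating replicate 1 at r = 0.825, below the 0.918 between proliferating replicate 1 and neuron replicate 1. Results that rest on it are given without it too. The summed marker list for neurons did not separate the groups. It came to 161 and 349 CPM (the count relative to the TMM-scaled library size) for proliferating iMOPs and 202 and 364 CPM for neurons. Within it Tubb3 alone ranged from 19.1 to 193 CPM. Elavl4 and Map2 were higher in both neuron libraries without overlap, and the groups overlapped for the other tested genes of the list. Of 9 otic progenitor markers 4 passed the count filter, Sox2, Sox9, Eya1 and Fbxo2. The list summed to 81.0 and 114 CPM for proliferating iMOPs and 70.2 and 34.6 CPM for neurons. Its tested genes differed in direction: Sox9 was lower in neurons without overlap of the groups, and Eya1 was higher without overlap. For Sox2 and Fbxo2 the groups overlapped. Of 10 markers of the otic neuron lineage 7 passed, and that list summed to 107 and 67.0 CPM for proliferating iMOPs and 36.2 and 66.0 CPM for neurons. Much of the proliferating sum was Ntrk2, at 72.9 and 32.5 CPM against 4.11 and 6.20 CPM in neurons. Among the 7, Ntrk2 and Calb2 were lower in neurons without overlap of the groups, and Prox1 and Neurod4 were higher without overlap. Pax2, Pax8 and Isl1 from these lists had 0 counts in all 4 libraries. Summed levels of 6 genes of dividing cells were 300.4 and 51.0 CPM for proliferating iMOPs and 382 and 209 CPM for neurons. Of 10 glial markers, 5 passed the count filter, and their list summed to 163 and 170 CPM for proliferating iMOPs and to 68.9 and 18.7 CPM for neurons. None of the 10 was at 0 in all libraries. Because glial markers were lower in both neuron libraries, they moved with the group in every comparison below, and their part in the results was not tested. In such bulk samples, fewer cells of a type and less RNA per cell cannot be told apart.

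The neurons were compared with the proliferating cells to ask which guidance genes differ between these groups. Medium, bFGF and K03861 differ with the group, so their effects and those of differentiation cannot be told apart. In edgeR's quasi-likelihood test 46 guidance genes passed the filter on low counts, 20 ligands and 26 receptors, and 0 were called higher and 0 lower at a Benjamini-Hochberg adjusted p-value under 0.05. The background over all 12783 tested genes was 0.0% in each direction, and the smallest adjusted p-value of a guidance gene was 0.868. Below an unadjusted p-value of 0.05, edgeR placed 2 guidance genes higher in neurons, Epha4 and Plxna2, against a background of 0.915%. It placed 3 lower, Epha2, Robo3 and Sema6d, against a background of 2.51%. DESeq2 placed 3 higher (Epha4, Plxna2 and Sema6c, background 0.978%) and the same 3 lower (background 2.75%) at that threshold. Without a gene filter, where 69 guidance genes were tested, edgeR placed 6 higher (background 1.67%) and 4 lower (background 2.23%). Once the replicate number entered as a block, 5 stood higher (Dcc, Efnb2, Epha4, Plxna2 and Sema6c) against a background of 2.7% and 4 lower (Epha2, Plxnd1, Robo3 and Sema6d) against 3.48%, and again 0 after adjustment, where the background was 0.0% higher and 0.0235% lower. The median log2 fold change of the 46 tested genes was -0.09 against 0.02 for all tested genes. Over the 46 genes, 21 had a log2 fold change above 0 (45.7%, background 52.0%) and 25 had one below 0 (54.3%, background 48.0%). With library size as the only scaling the split was 12 and 34, and relative to the all-gene shift of that setting it was 21 and 25. Leaving out neuron replicate 1 gave 28 and 18, and leaving out neuron replicate 2 gave 11 and 35, so the direction of the whole set turned with 1 library.

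**Figure D1:**
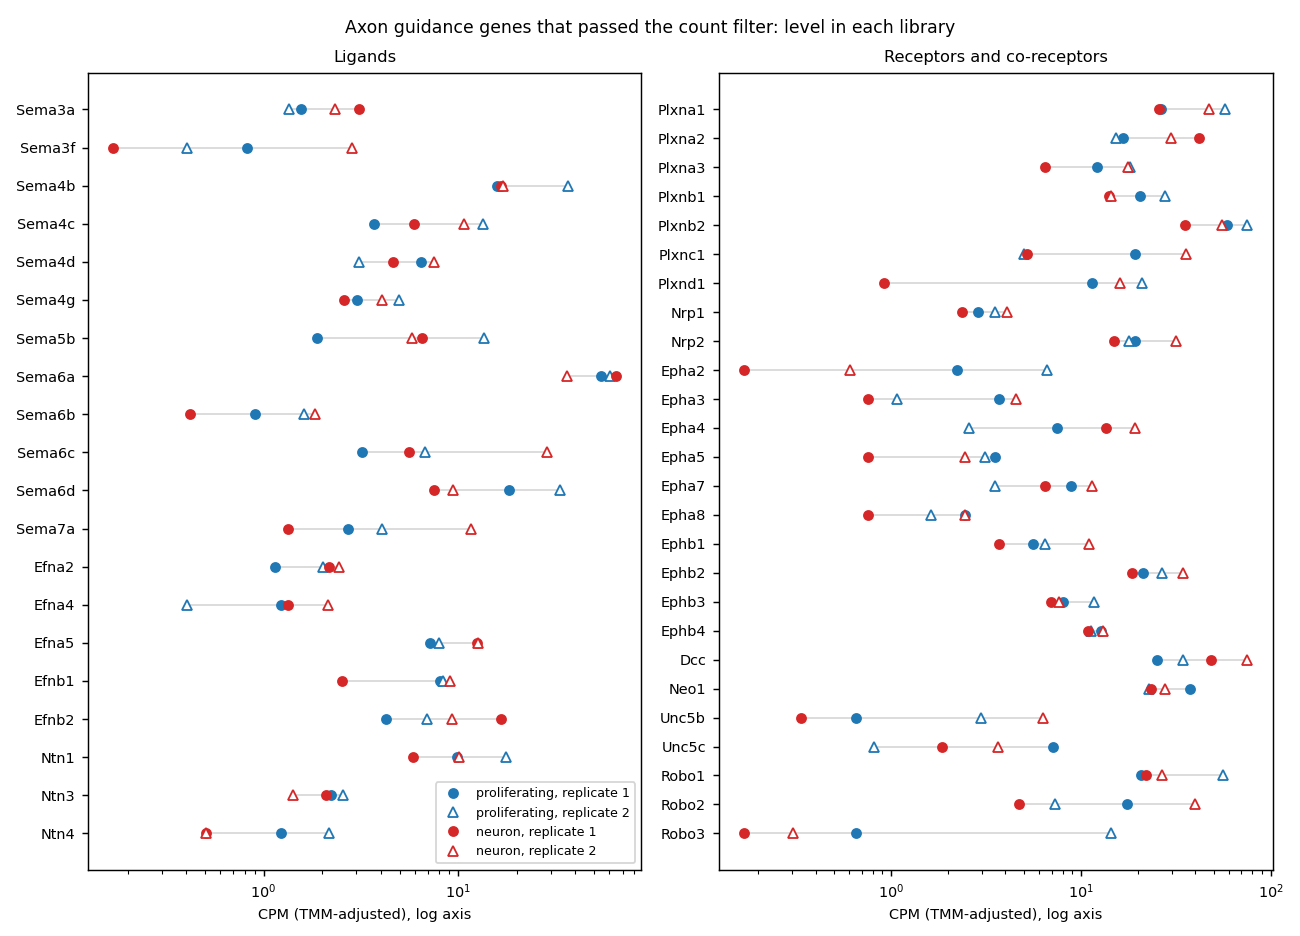
Level of each of the 46 guidance genes that passed the count filter in each of the 4 libraries, in TMM-adjusted CPM on a log axis, ligands on the left and receptors on the right. Blue marks proliferating iMOPs and red marks neurons, with filled circles for replicate 1 and open triangles for replicate 2. For Dcc, Plxna2 and Epha4 both red symbols lie to the right of both blue ones, and for Epha2, Robo3 and Sema6d both lie to the left.

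The 4 genes that were below an unadjusted p-value of 0.05 in both fits, apart from Robo3, are shown with the bases before their outermost RefSeq start (GRCm38.p6, the mm10 assembly), 5′ to 3′ in the direction of the gene. They are printed because Epha2 and Sema6d were lower, and Epha4 and Plxna2 higher, in both neuron libraries. Bases inside the RefSeq gene were left off. Epha2 itself spans chr4:141301221-141329384, Sema6d chr2:124089943-124667789, Epha4 chr1:77367182-77515107 and Plxna2 chr1:194619791-194816869. Capitals mark matches, on either strand, to the letters CAGNTG (E-box), GCGNGGGCG (EGR), CCGGAAG (ETS), TGANTCA (AP-1), TGACGTCA (CRE) or GGGCGG (SP), and adjoining matches run together.
Epha2, chr4:141300971-141301220, plus strand: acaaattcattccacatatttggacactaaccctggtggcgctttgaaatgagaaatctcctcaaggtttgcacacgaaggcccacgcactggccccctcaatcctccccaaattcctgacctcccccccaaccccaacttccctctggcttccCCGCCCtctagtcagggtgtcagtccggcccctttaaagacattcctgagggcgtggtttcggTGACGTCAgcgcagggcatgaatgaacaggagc
Sema6d, chr2:124089719-124089942, plus strand: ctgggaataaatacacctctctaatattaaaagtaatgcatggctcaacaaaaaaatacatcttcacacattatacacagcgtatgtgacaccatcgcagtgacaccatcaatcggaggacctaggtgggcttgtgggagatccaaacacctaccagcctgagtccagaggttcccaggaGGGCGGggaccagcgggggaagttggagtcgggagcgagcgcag
Epha4, chr1:77515108-77515338, minus strand: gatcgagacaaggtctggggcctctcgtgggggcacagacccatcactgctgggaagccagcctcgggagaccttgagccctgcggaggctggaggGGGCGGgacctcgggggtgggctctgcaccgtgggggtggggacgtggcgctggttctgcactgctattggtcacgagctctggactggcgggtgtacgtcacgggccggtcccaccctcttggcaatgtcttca
Plxna2, chr1:194619579-194619790, plus strand: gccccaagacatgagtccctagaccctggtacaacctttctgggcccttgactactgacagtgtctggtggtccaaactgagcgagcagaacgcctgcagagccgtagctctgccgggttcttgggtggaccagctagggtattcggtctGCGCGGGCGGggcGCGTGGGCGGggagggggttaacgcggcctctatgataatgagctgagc
The Epha2 stretch holds 1 CRE and 1 SP match, those of Sema6d and Epha4 hold 1 SP match each, and that of Plxna2 holds 2 EGR matches, each overlapping 1 of its 2 SP matches. None of the 4 stretches holds the E-box, ETS or AP-1 letters. RefSeq promoters were found for 60 of the 70 guidance genes, 76 promoters in all, and the 250 bases before the start were searched. The SP letters were in 71.1% of these 76, against 56.5% of the 12045 promoters of tested genes and 32.7% of all 32851 promoters. The EGR letters were in 15.8%, against 9.09% and 4.7%, and in 10 of the 12 guidance promoters with a match an SP match overlapped it. The E-box letters were in 38.2% (37.7% and 44.8%), the ETS letters in 2.63% (13.4% and 6.91%), the AP-1 letters in 3.95% (4.13% and 6.75%) and the CRE letters in 1.32% (2.7% and 1.55%). The median GC content of the searched bases was 64.4% for guidance genes, 60.0% for tested genes and 52.4% for all promoters, so the sets differ in base composition too.

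The tested netrins had negative log2 fold changes in neurons, while the netrin receptor Dcc had a positive one. Dcc, the attractive netrin receptor, gave 307 and 254 counts in proliferating iMOPs against 575 and 741 in neurons. Both neuron libraries were above both proliferating ones, at 61.8 ± 19.2 CPM against 29.7 ± 6.46 CPM (SD, n = 2 each). Its log2 fold change was 1.06 (SE 0.48, edgeR unadjusted and adjusted p-values 0.062 and 0.9998). With the replicate block, these edgeR p-values were 0.033 and 0.724. The pairs gave log2 differences of 0.93 and 1.13. Leaving out proliferating replicate 2 made the fold change 1.30. Ntn1, the diffusible ligand of Dcc, gave 120 and 130 counts in proliferating iMOPs against 70 and 99 in neurons. The fold change on the log2 scale was -0.78 (SE 0.55, edgeR adjusted p-value 0.9998), and the groups overlapped, since neuron replicate 2 at 10.1 CPM lay just above proliferating replicate 1 at 9.83 CPM. It was -0.31 when proliferating replicate 2 was left out.

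Ntn4, a laminin-related netrin, gave 15 and 16 counts in proliferating iMOPs against 6 and 5 in neurons. It was lower in neurons by more than 2-fold in each pair, with log2 differences of -1.03 and -1.75, a fold change of -1.70 (SE 0.85) and 0.9998 as the edgeR adjusted p-value. Its counts are small: the pooled ratio of 3.13-fold had a 95% counting interval of 1.53 to 6.89. Ntn3 had 27 and 19 counts against 25 and 14. All 3 tested netrins had a negative log2 fold change, with a median of -0.78. The sign held in each setting tried, including without each library in turn, but the size did not. The median was -0.32 without proliferating replicate 2 and -1.22 without neuron replicate 2. Ntn5 had 5 counts in proliferating replicate 1 and 0 in the other libraries.

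The other netrin receptors did not follow Dcc. Neo1, a relative of Dcc that also binds repulsive guidance molecules, gave 459 and 170 counts in proliferating iMOPs against 279 and 273 in neurons. Proliferating replicate 1 was the high library at 37.6 CPM, the other 3 lay between 22.9 and 27.8 CPM, and the difference on the log2 scale was -0.25 (SE 0.47). Unc5c, a repulsive receptor, went opposite ways, with 87 and 22 counts in the replicate 1 pair and 6 and 36 in the replicate 2 pair (proliferating first). Unc5b had 8 and 4 counts in the replicate 1 pair and 22 and 62 in the replicate 2 pair. Unc5a and Unc5d had at most 5 counts in any library and did not pass the filter.

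Among the 10 tested Eph receptors, Epha2 had the most negative log2 fold change and Epha4 the most positive. Epha2, a receptor for ephrin-A ligands that is widespread in epithelial cells, gave 27 and 49 counts in proliferating iMOPs against 2 and 6 in neurons. Both neuron libraries lay below both proliferating ones, at 0.389 ± 0.313 CPM against 4.41 ± 3.11 CPM (SD, n = 2 each). The log2 fold change of -3.49 (SE 0.92) had edgeR unadjusted and adjusted p-values of 0.0061 and 0.868, or 0.00067 and 0.158 with the replicate block. The value was similar in the pairs, -2.74 and -3.08, and was -2.51 without proliferating replicate 2. The pooled count ratio was 10.5-fold, with a 95% counting interval of 5.09 to 25.3. It was called lower in edgeR without a gene filter (adjusted p-value 0.0163, background 0.472% lower and 0.159% higher) and without proliferating replicate 1 (0.0496, background 0.829% lower and 0.422% higher). Over the 4 libraries left out, the value lay between -4.61 and -2.51.

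Epha4, a receptor that binds both ephrin-A and ephrin-B ligands, gave 91 and 19 counts in proliferating iMOPs against 162 and 190 in neurons. Neurons stood at 16.5 ± 4.05 CPM and proliferating iMOPs at 5.01 ± 3.46 CPM (SD, n = 2 each), with no overlap. This made a log2 fold change of 1.70 (SE 0.63, edgeR unadjusted and adjusted p-values 0.029 and 0.9998, or 0.011 and 0.515 with the replicate block). The pairs differed in size, 0.85 and 2.82, and leaving out proliferating replicate 2 gave 1.14, while leaving out proliferating replicate 1 gave 2.65.

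The other 8 tested Eph receptors showed no shared direction. Ephb4, a receptor for ephrin-B2 best known from veins, gave 155 and 84 counts in proliferating iMOPs against 130 and 129 in neurons. All 4 libraries lay between 10.9 and 13.1 CPM, and the log2 fold change was -0.0026 (SE 0.47). Ephb3 had 98 and 87 counts against 83 and 75, with a log2 fold change of -0.44 (SE 0.48) and no overlap of the groups. Epha5 was also lower without overlap, with 43 and 23 counts against 9 and 24. Epha3, Epha7, Epha8, Ephb1, Ephb2 and Ephb4 had lower neuron values in replicate pair 1 and higher ones in replicate pair 2, which set the family's median at -0.51 in the first pair and 0.45 in the second. Epha1, Epha6, Epha10 and Ephb6 had at most 9 counts in any library.

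Of the 5 tested ephrins, 4 had a positive log2 fold change and were higher in neurons in both pairs (background 28.8%) without overlap of the groups (background 12.9%), Efna2, Efna4, Efna5 and Efnb2. Efnb2, a transmembrane ephrin, gave 52 and 51 counts in proliferating iMOPs against 199 and 91 in neurons. Levels were 5.57 ± 1.86 CPM and 13.0 ± 5.26 CPM (SD, n = 2 each), with a log2 fold change of 1.23 (SE 0.55, edgeR unadjusted and adjusted p-values 0.059 and 0.9998, or 0.049 and 0.803 with the replicate block). The difference was larger in the replicate 1 pair, 1.92 against 0.42. Efna5, a ligand linked to the membrane by a lipid anchor, had close replicates, with 7.13 and 7.96 CPM in proliferating iMOPs against 12.5 and 12.7 CPM in neurons. Its log2 fold change of 0.74 had an SE of 0.46 and an edgeR adjusted p-value of 0.9998. Efna4 had 15 and 3 counts against 16 and 21, and an antisense exon covers 10.5% of its exon length.

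Efna2 gave 14 and 15 counts in proliferating iMOPs against 26 and 24 in neurons, a log2 fold change of 0.56 (SE 0.66.) Efnb1, the exception, had 99 and 62 counts against 30 and 89. Neuron replicate 1 was the single low library for it, at 2.52 CPM against 8.11 to 9.05 CPM in the others, and without that library the log2 fold change of -0.52 became 0.094, while without neuron replicate 2 it was -1.71. At least 4 of the 5 ephrins were above 0 in each setting tried. Efna1, Efna3 and Efnb3 did not pass the filter, with 3 to 18 counts.

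**Figure D2:**
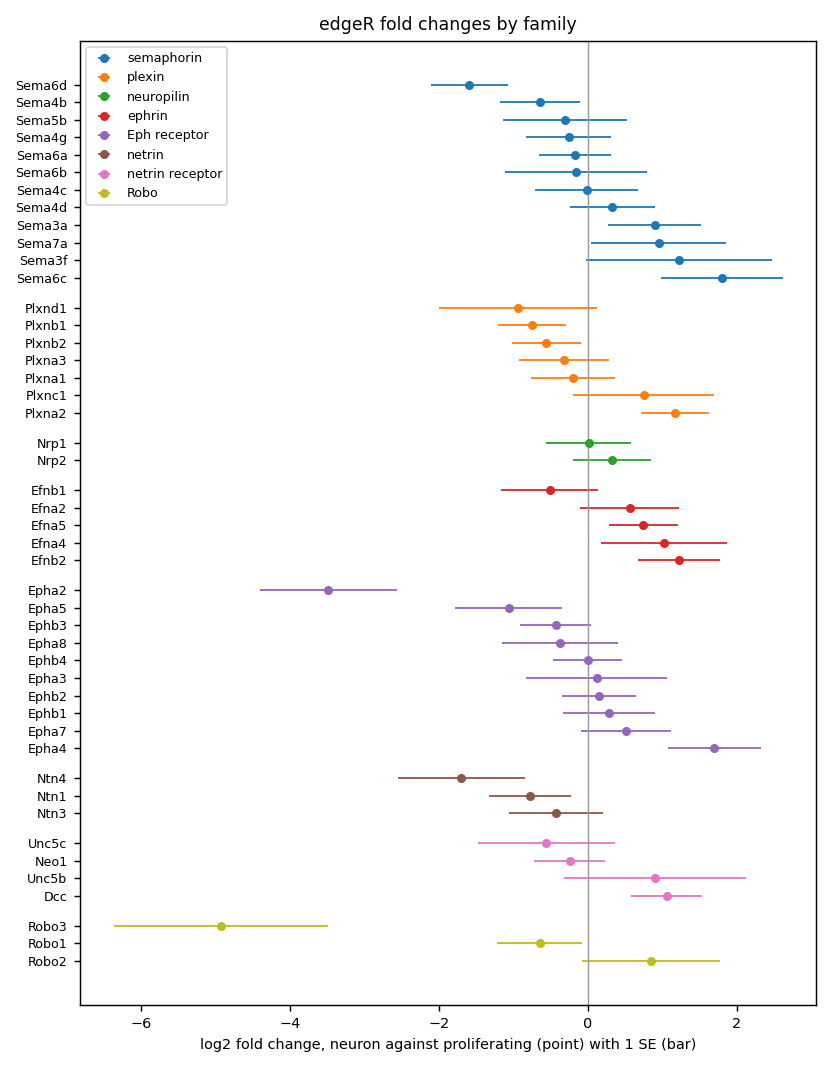
Log2 fold change of neurons against proliferating iMOPs for the 46 tested guidance genes from edgeR, grouped and coloured by family and sorted within each. Bars are 1 SE; the vertical line marks no difference. The 3 netrins lie left of it, 4 of 5 ephrins lie right, and the Eph receptors spread from -3.49 for Epha2 to 1.70 for Epha4.

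The semaphorins included the ligand with the highest level per length, Sema6a, and had fold changes of both signs. Sema6d, a transmembrane semaphorin, gave 223 and 246 counts in proliferating iMOPs against 90 and 93 in neurons. Levels were 25.7 ± 10.6 CPM and 8.50 ± 1.35 CPM (SD, n = 2 each) without overlap. A log2 fold change of -1.60 (SE 0.52) came with edgeR unadjusted and adjusted p-values of 0.016 and 0.9998, or 0.0065 and 0.414 with the replicate block. Its pair differences were -1.25 and -1.79, and the value was -1.10 with proliferating replicate 2 left out.

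Sema6c, a relative of Sema6d, gave 39 and 50 counts in proliferating iMOPs against 67 and 283 in neurons. Its log2 fold change of 1.80 (SE 0.82, edgeR unadjusted p-value 0.063, 0.017 with the replicate block, adjusted p-values 0.9998 and 0.597) rested on neuron replicate 2, at 28.8 CPM against 3.20 to 6.75 CPM elsewhere. Without that library it was 0.19. Sema3a, a secreted repellent read through Nrp1, was higher in both neuron libraries at low counts, 19 and 10 against 37 and 23 (log2 fold change 0.90, SE 0.62).

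Sema6a, a transmembrane ligand of plexin-A2 and plexin-A4, gave 661 and 448 counts in proliferating iMOPs against 775 and 359 in neurons. The groups overlapped, with -0.17 (SE 0.48) on the log2 scale. Sema4b gave 194 and 273 counts in proliferating iMOPs against 198 and 167 in neurons. Proliferating replicate 2 was its only high library, at 36.9 CPM against 15.9 and 16.6 CPM in the replicate 1 libraries, and without it the log2 fold change of -0.65 became 0.079. Of the 20 semaphorins, 12 were tested, 5 above 0 and 7 below, with a median of -0.09. This split turned to 9 above and 3 below without proliferating replicate 2 (median 0.55), and to 7 above and 5 below without neuron replicate 1 or with the replicate block. Secreted class 3 genes were scarce: Sema3b, Sema3c, Sema3d, Sema3e and Sema3g did not pass the filter, and of these Sema3c reached 25 counts in neuron replicate 2 against 0 to 2 in the other libraries.

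Among the semaphorin receptors, Plxna2 was higher in neurons. Plxna2, a receptor for class 6 semaphorins and with neuropilins for class 3, gave 202 and 113 counts in proliferating iMOPs against 499 and 293 in neurons. The proliferating libraries were close together at 15.9 ± 0.917 CPM, and the neuron libraries lay above both at 35.8 ± 8.54 CPM (SD, n = 2 each). The resulting log2 fold change of 1.17 (SE 0.46) had edgeR unadjusted and adjusted p-values of 0.036 and 0.9998, or 0.023 and 0.651 with the replicate block. It was 1.11 without proliferating replicate 2 and lay between 0.86 and 1.40 over the other libraries left out.

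Of the other 6 tested plexins, 5 had a negative log2 fold change. All 7 together had 2 above 0 and 5 below (median -0.32), against 4 and 3 without neuron replicate 1 (median 0.13) and 3 and 4 without proliferating replicate 2. Plxnb1, a receptor of Sema4d, gave 249 and 206 counts in proliferating iMOPs against 168 and 142 in neurons, a log2 fold change of -0.76 (SE 0.46) and no overlap. Plxnb2 had 716 and 555 counts against 420 and 546, also without overlap (log2 fold change -0.56, SE 0.47). Plxna1, a receptor that pairs with neuropilins and binds Sema6d, had 323 and 426 counts against 307 and 467, overlapping between the groups (-0.20, SE 0.56), and its sign turned without proliferating replicate 2 (0.47) or neuron replicate 1 (0.13). Antisense exons cover 10.7% of the Plxna1 exon length, so its counts are less certain.

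Plxnd1, the receptor of Sema3e, depended on 1 library. It gave 140 and 156 counts in proliferating iMOPs against 11 and 158 in neurons. Neuron replicate 1 stood at 0.923 CPM against 11.5 to 21.1 CPM in the other 3. Its log2 fold change was -0.94 (SE 1.06, edgeR adjusted p-value 0.9998). With the replicate block it was -1.82 with an unadjusted p-value of 0.033 and an adjusted one of 0.724, and without neuron replicate 1 it was -0.059. Leaving out neuron replicate 2 instead gave -4.12.

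Of the co-receptors, Nrp2 gave 234 and 133 counts in proliferating iMOPs against 177 and 312 in neurons, and Nrp1 had 35 and 26 against 28 and 40. Their log2 fold changes were 0.33 (SE 0.52) and 0.0089 (SE 0.57), with overlapping groups. Both turned negative with library size as the only scaling, a setting that moved the all-gene median by -0.29, so the direction of neither is settled here.

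Robo receptors were present while Slits were near the limit of detection. Robo1, a Slit receptor, gave 252 and 413 counts in proliferating iMOPs against 262 and 262 in neurons. Proliferating replicate 2 stood apart at 55.7 CPM, the others lay between 20.6 and 26.6 CPM, and the log2 fold change of -0.65 (SE 0.57) became 0.23 without it. Robo3, a receptor known from axons that cross the midline, had the most negative fold change of the family, which also rested on that library. It gave 8 and 107 counts in proliferating iMOPs against 2 and 3 in neurons, with a log2 fold change of -4.93 (SE 1.44).

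The edgeR unadjusted and adjusted p-values of Robo3 were 0.010 and 0.966, and 0.00093 and 0.173 with the replicate block. Without proliferating replicate 2 its log2 fold change was -1.45. Without proliferating replicate 1 it was -5.91. Robo3 was called lower by DESeq2 (adjusted p-value 0.0155, background 0.375% lower and 0.0957% higher). It was also called lower by edgeR without a gene filter (adjusted p-value 1.9e-05, background 0.472% lower and 0.159% higher). When the 18S row was left out, Robo3 no longer passed the count filter. Robo4, the Robo of blood vessels, had 0 counts in all 4 libraries, which allows up to 0.246 to 0.405 CPM. Of 7 endothelial markers 0 passed the filter, and their sum was 0.203 to 2.02 CPM.

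Slit1 gave 4 and 3 counts in proliferating iMOPs against 11 and 7 in neurons, a pooled ratio of 2.32-fold with a 95% counting interval of 0.924 to 6.57. Slit3 gave 13 and 4 counts in proliferating iMOPs and none in neurons, with 0 in each neuron library. With 3 counts over the neuron group as the limit, the 17 proliferating counts gave a ratio of 6.29-fold. That ratio leaves out the counting error of the 17, and 13 of them came from proliferating replicate 1. Slit2 had 1 count in proliferating replicate 2 and 0 elsewhere. The Slits thus summed to 0.712 to 1.39 CPM per library, while the Robos summed to 26.8 to 77.5 CPM.

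**Figure D3:**
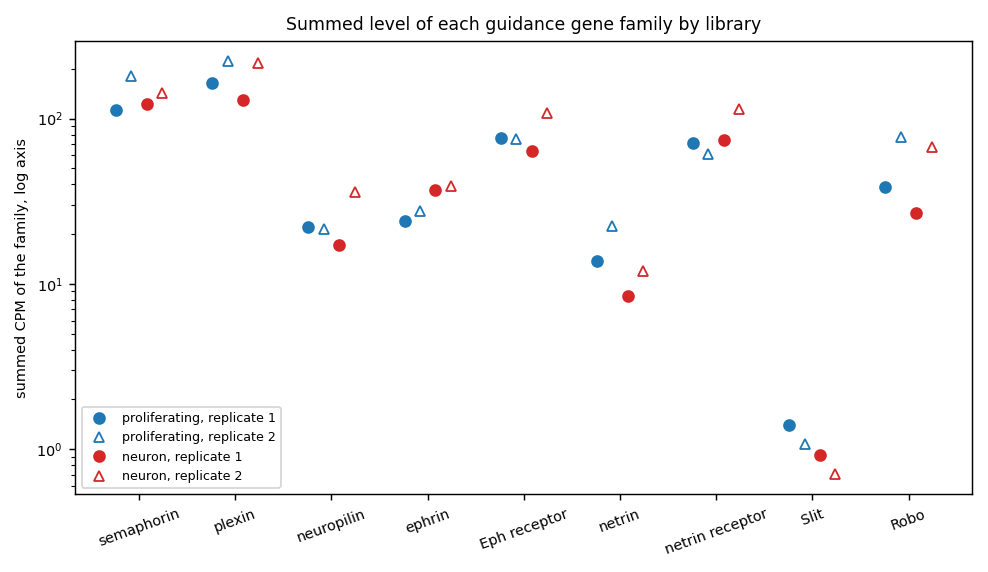
Summed TMM-adjusted CPM of each guidance gene family in each library, on a log axis, with blue for proliferating iMOPs, red for neurons, filled circles for replicate 1 and open triangles for replicate 2. Plexins and semaphorins had the highest sums and Slits the lowest. Both neuron libraries lay above both proliferating libraries for the ephrins and netrin receptors and below both for the netrins and Slits. For the netrin receptors the gap was small, 71.3 CPM in proliferating replicate 1 against 73.9 CPM in neuron replicate 1. Of their tested genes only Dcc was higher without overlap. The Slit sums rest on 7 to 17 counts per library, and Slit1 by itself was higher in neurons.

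Levels between genes were compared per length, as CPM per kilobase of merged GENCODE M21 exons, averaged over the 4 libraries. The highest was Plxnb2 at 7.26, followed by Sema6a at 6.16, Plxna1 at 4.34, Sema4b at 3.82 and Dcc at 3.47. Neo1 at 3.20, Ephb4 at 2.59 and Efna5 at 2.50 came next. Neighbours in this order overlapped between libraries: Plxnb2 ran from 4.56 to 9.70 and Sema6a from 4.16 to 7.41. In neuron replicate 2 Dcc stood at 5.72 on this scale, above Sema6a at 4.16, while in proliferating replicate 1 it stood at 1.91 against 6.17. By summed CPM, receptors made up 65.0% to 73.7% of the guidance gene counts in each library.

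The replicate pairs went the same way for 23 of the 46 tested genes (50.0%, background 54.3%). Over the 46 tested genes, 9 were higher in neurons in both pairs (background 28.8%), 14 were lower in both (25.5%), 18 were lower in the replicate 1 pair and higher in the replicate 2 pair (24.5%), and 5 did the reverse (21.2%). The 18 genes are 39.1% of the tested members, the 9 are 19.6% and the 14 are 30.4%. At a 2-fold difference in each pair, 0 were higher in both (background 1.62%) and 4 were lower in both, Epha2, Ntn4, Robo3 and Sema6d (8.7%, background 2.43%). At the same size 5 were lower in the first pair and higher in the second (10.9%, background 1.53%), and 1, Sema5b, did the reverse (background 0.595%).

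These 5 were Epha3, Plxnc1, Robo2, Sema3f and Unc5c. Robo2, a Slit receptor, had 212 and 394 counts in proliferating replicate 1 and neuron replicate 2 but 54 and 56 in proliferating replicate 2 and neuron replicate 1. Plxnc1, the receptor of Sema7a, had 235 and 353 counts in the first 2 of these libraries and 37 and 62 in the others. Epha3 had 45 in each of the first 2, and 8 and 9 in the others. The groups therefore overlapped fully for these genes, and their log2 fold changes of 0.85 for Robo2, 0.75 for Plxnc1 and 0.12 for Epha3 turned to -1.39, -1.23 and -1.67 without neuron replicate 2.

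Across the 46 genes the pair differences had a Pearson correlation of 0.092 and a Spearman rank correlation of 0.040, against 0.185 and 0.126 across all 12783 tested genes. These are descriptions across genes of the same 4 libraries, and genes are not independent replicates. For 36 of the 46 genes (78.3%, against 84.2% of all tested genes) the log2 gap between replicates of at least 1 group exceeded the difference between the group means. The median gap was 0.73 between the proliferating replicates and 0.78 between the neuron replicates, where all tested genes had 0.73 and 0.47. By CPM without overlap between the groups, 8 guidance genes were higher in neurons (17.4%, background 12.9%) and 9 lower (19.6%, background 14.5%).

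**Figure D4:**
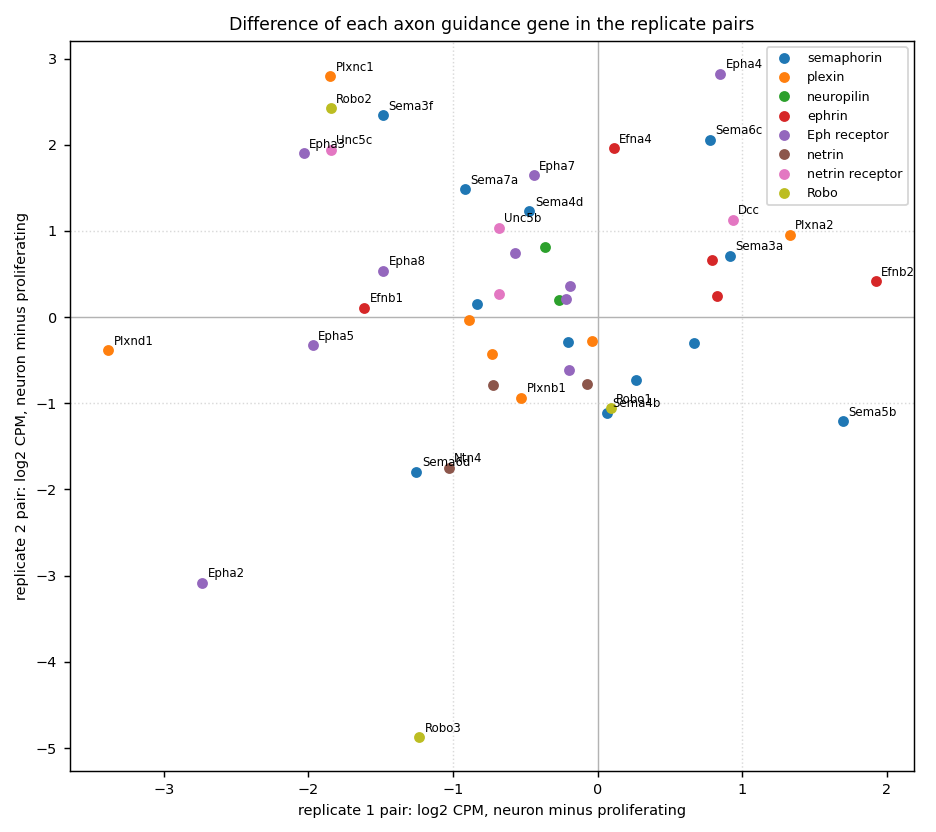
Difference of log2 CPM (prior count 2), neuron minus proliferating, in the replicate 1 pair (horizontal axis) and the replicate 2 pair (vertical axis) for the 46 tested guidance genes, coloured by family, with dotted lines at a 2-fold difference. Epha2, Robo3, Sema6d and Ntn4 lie beyond 2-fold at the lower left, and Plxnc1, Robo2, Sema3f, Unc5c and Epha3 at the upper left.

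A list of 71 other genes of guidance signalling, the cytoplasmic effectors, co-receptors and further cues outside these families, had 59 tested members. In edgeR 0 of them were called in either direction, and below an unadjusted p-value of 0.05 stood 2 higher (3.39%, background 0.915%) and 2 lower (3.39%, background 2.51%). Their median log2 fold change was -0.09, with 25 above 0 and 34 below. The 5 with the lowest unadjusted p-values were Srgap1, Kalrn, Vasp, Chn1 and Draxin. Srgap1, a GTPase-activating protein that binds Robo receptors, gave 57 and 45 counts in proliferating iMOPs against 4 and 14 in neurons (log2 fold change -2.62, SE 0.76, edgeR unadjusted and adjusted p-values 0.010 and 0.966). That fold change was -1.95 with neuron replicate 1 left out and -3.95 with neuron replicate 2 left out.

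Kalrn, a guanine nucleotide exchange factor, gave 123 and 126 counts in proliferating iMOPs against 453 and 313 in neurons (log2 fold change 1.37, SE 0.49). Chn1, which codes for a Rac inhibitor that acts below Epha4, had 28 and 37 against 101 and 94 (1.32, SE 0.56, and 1.97 without proliferating replicate 2). Kalrn and Chn1 were higher in both neuron libraries without overlap, with an edgeR adjusted p-value of 0.9998 each. Of the tested genes of the list, 16.9% were higher without overlap (background 12.9%) and 20.3% lower (background 14.5%). Vasp, an actin regulator, had 122 and 233 counts against 79 and 74. Its log2 fold change was -1.54 (SE 0.64) and -0.50 without proliferating replicate 2. It was the 1 gene of the list called in any setting tried, without proliferating replicate 1, where 0.829% of all tested genes were called lower and 0.422% higher. Draxin, a secreted cue that binds netrin receptors, had 189 and 58 counts against 162 and 412, with overlapping groups (1.24, SE 0.66). Neuron replicate 2 was its high library, and without it the value was 0.22.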

How the data were processed

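Each of the 4 libraries came with 2 deposited tables, the authors' raw counts by gene symbol and their RPKM values. Per the submitters' processing notes, HISAT2, SAMtools, featureCounts, DESeq2, deepTools 3.4.3 and the build mm10 were used. Their settings, the use of strand and the handling of reads with several matches are not given in the sources used here. Exons of 18 guidance genes overlap another gene in GENCODE M21, 15 of them on the opposite strand, which makes their counts less certain.

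The deposited RPKM values divide each count by the library total, 18S row included, and by 1 length per gene. That length was 3.10 times the merged exon length at the median of the guidance genes, so RPKM was used only in the naming rule and in alternatives, and levels between genes use merged exons.

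Titles gave the groups and the replicate numbers. Counts were tested with edgeR 4.0.16 under R 4.3.3 (TMM, filterByExpr with minimum count 10 and minimum total 15, glmQLFit and glmQLFTest with group as the term, all 4 libraries), two-sided and Benjamini-Hochberg adjusted over 12783 genes. SE is the log2 fold change over the root of the F statistic. Of the 70 guidance genes 24 did not pass the filter, and a gene can pass through the group where it is high, so counts over the 46 describe those genes only. With 2 libraries against 2, the smallest two-sided p of an exact permutation test is 0.333, so none was made. Intervals cover counting error only, since reads without molecular identifiers are not independent molecules.

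Both replicate 2 titles name a set 2, so the numbers were taken to mark a shared set. Deviations of same-numbered libraries from their group means correlated across genes at r = 0.33.

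Genes given in full had an unadjusted p-value under 0.05 with or without the block, differed at least 2-fold the same way in both pairs, or were among the 2 highest mean RPKM values of their family. From the signalling list the 5 lowest p-values were named. Other genes were chosen after their values were seen. The members and lists were chosen with earlier results of these data known. Alternatives were RLE factors, library size alone, no 18S row, DESeq2 1.42.0, 2 other gene filters, the replicate block, each library left out, and limma 3.58.1 on log2(RPKM + 0.1) or on log2(RPKM + 1). The fit was tested on simulated counts.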

Additional observations from a re-analysis of the deposited data

How the results depend on the processing

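The count of called guidance genes was 0 in the main test and with RLE factors, library size alone, no 18S row, the CPM filter, both RPKM scales and the replicate block. It was 1 with DESeq2 (Robo3) and 2 without a gene filter (Epha2 and Robo3), all lower in neurons, and 0 to 2 with 1 library left out (2 without proliferating replicate 1, Epha2 and Robo3, where 0.829% of all tested genes were called lower and 0.422% higher). Over all genes, DESeq2 called 0.375% lower and 0.0957% higher, and edgeR without a gene filter called 0.472% lower and 0.159% higher. For DESeq2 and the filter the cause was not tested. Without a library 1 group has a single library, which is assumed to vary like the other group. The CPM filter kept as many genes as the main one and gave the same values, so it is not a separate check. The median of the tested guidance genes (-0.09) ranged from -0.68 (without neuron replicate 2) to 0.25 (without neuron replicate 1). The median of the signalling list (-0.09) was -0.31 with library size alone, which shifted all genes by -0.29, and ranged from -0.28 (without neuron replicate 2) to 0.21 (without proliferating replicate 2), and its called genes from 0 to 1. With library size alone, 12 guidance genes were above 0 and 34 below, against 21 and 25. Relative to the shift, they were 21 and 25. The split was 15 and 31 with log2(RPKM + 0.1) and 12 and 34 with log2(RPKM + 1). The count of genes beyond 2-fold the same way in both pairs was 4 with a prior count of 0.5 or library size alone. The replicate block changed no call of a guidance gene.

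Outside the fits that leave out a library, the sign turned for 4 of 23 named tested genes. Nrp1 was -0.33 with library size alone, -0.14 with log2(RPKM + 0.1), -0.027 with log2(RPKM + 1) and -0.037 with the replicate block. Nrp2 was -0.14, -0.019 and -0.032 in the first 3 of these. Plxnc1 was -0.18 with library size alone and -0.0073 with log2(RPKM + 1). Ephb4 was 0.0051 without the 18S row and 0.037 without a gene filter. Leaving out 1 library turned the sign of 10 genes. The ranges were -1.71 to 0.094 for Efnb1, -0.14 to 0.084 for Ephb4, -0.56 to 0.13 for Neo1, -0.44 to 0.31 for Nrp1, -0.32 to 0.73 for Nrp2, -0.70 to 0.47 for Plxna1, -1.23 to 1.99 for Plxnc1, -1.22 to 0.23 for Robo1, -1.16 to 0.079 for Sema4b and -0.69 to 0.18 for Sema6a. Of the 70 guidance genes, 24 had too few counts to be tested.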

Other observations

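Other guidance cues outside the families above were taken from the signalling list and chosen here after their values were seen. Flrt1 and Flrt2 had lower neuron values in the replicate 1 pair and higher ones in the replicate 2 pair. Of the 59 tested genes of that list, 11 did so (18.6%, background 24.5%) and 15 did the reverse (25.4%, background 21.2%). Flrt1, a membrane protein that binds Unc5 receptors, had 85 and 46 counts in the replicate 1 pair and 35 and 249 in the replicate 2 pair, proliferating first. Flrt2, its relative, had 134 and 64 in the first pair and 16 and 84 in the second. The log2 differences were -0.82 and 2.37 for Flrt1 and -1.01 and 1.89 for Flrt2. Flrt3 was higher in both neuron libraries at low counts, 18 and 5 against 19 and 33.

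Rgma, a ligand of Neo1, gave 196 and 122 counts in proliferating iMOPs against 281 and 114 in neurons, with a log2 fold change of 0.11 and pair differences of 0.55 and -0.50. Nrcam, an adhesion molecule of the L1 family, had 227 and 96 counts against 114 and 95, lower in both pairs by 0.95 and 0.42 on the log2 scale. Cntn2, an adhesion molecule of early axons, had 41 and 5 counts in the replicate 1 pair and 254 and 159 in the replicate 2 pair. It was thus lower in neurons within each pair, while the replicate 2 libraries were both above the replicate 1 libraries.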
